A study of Caenorhabditis elegans with 6 samples.

Results

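The genes described here encode ion channels through which the neurons and muscles of Caenorhabditis elegans signal. They were chosen by symbol from the deposited gene table: every acr, lgc, twk, glr, nmr, kqt and del gene, and unc-29, unc-38, unc-63, unc-49, egl-19, unc-2, slo-1, slo-2, shk-1 and egl-36 by full symbol. This gave 151 genes of the 46254 with counts: 53 lgc, 44 twk, 21 acr, 10 del, 8 glr, 3 kqt and 2 nmr genes and the 10 named in full. Of the 151, 107 (70.9%) had at least 10 counts in at least 2 libraries and entered the tests. The other 44 never exceeded 18 counts in any library, and 4 of them (lgc-7, lgc-15, lgc-17 and twk-44) had no count at all.

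Neurons of the worm release acetylcholine or GABA onto body wall muscle, where acetylcholine opens cation channels built from acr and unc subunits and GABA opens the chloride channel encoded by unc-49. Calcium channels turn the resulting depolarisation into transmitter release or contraction, and potassium channels end it. The twk genes encode potassium channels with a pair of pore domains, which set the resting potential, and the del genes encode sodium channels of the DEG/ENaC family. The lgc genes encode pentameric ligand-gated channels, whose known ligands include amines, choline, acetylcholine and GABA, although many have no assigned ligand.

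Polyadenylated RNA came from whole CF512 worms, a strain that becomes sterile at raised temperature, raised from eggs at 25 °C for 48 h on RNAi bacteria and collected on day 1 of adulthood. The 3 groups were fed bacteria carrying an empty vector, RNAi toward daf-2 (the insulin/IGF-1 receptor) or RNAi toward cav-1 (caveolin), and each group had 2 libraries, 1 from each of 2 biological repeats. All groups therefore shared the strain, the temperature and the route of feeding, and differed in what the bacteria carried. Reads came from whole bodies, so neurons and muscle were a part of each sample, and fewer cells of a type and less RNA per cell cannot be told apart.

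Libraries held 25474328 to 32886440 counts, and the 151 channel genes took 0.0363% to 0.0720% of them. Counting error alone amounts to 10% of the value (CV) at 100 counts and 31.6% at 10. The RNAi targets checked the labels: daf-2 stood at 39.4 and 202 scaled CPM (counts brought to a common library total) in repeats 1 and 2 of empty vector and at 28.3 in both daf-2 RNAi libraries, and cav-1 at 164 and 198 CPM in empty vector and 5.79 and 1.97 under cav-1 RNAi. The log2 difference of daf-2 under its own RNAi was -1.63 (limma adjusted p = 8.58e-05), though in repeat 1 alone 39.4 stood against 28.3 CPM. cav-1 also stood at 45.9 and 19.6 CPM under daf-2 RNAi. Treatments were compared by limma-trend on log2(CPM + 1) with the repeat as a block, with p-values adjusted over all 14478 genes tested. Differences on this scale understate the change of genes near or below 1 CPM, which covers many channels: 67 of the 151 averaged at least 1 CPM and 20 at least 5 CPM.

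Most channel genes were scarce, and a handful carried the family. Per kilobase of transcript, del-6 was the most abundant in empty vector worms at 72.0 and 43.3 CPM per kilobase in repeats 1 and 2. lgc-22 followed at 15.9 and 20.1, twk-5 at 16.5 and 16.9, lgc-32 at 19.8 and 5.51, and the NMDA receptor subunit nmr-2 at 9.28 and 12.7. The nmr-2 level is uncertain, since the gene overlaps hrde-2 on the opposite strand and had 0.616 to 0.683 counts per hrde-2 count in the 6 libraries. The order among lgc-22, twk-5, lgc-32 and nmr-2 did not hold in both repeats. del-6 alone supplied 23.2% to 32.7% of the channel counts of a library. The 5 genes with most counts together supplied 45.7% to 50.9%.

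**Figure D1:**
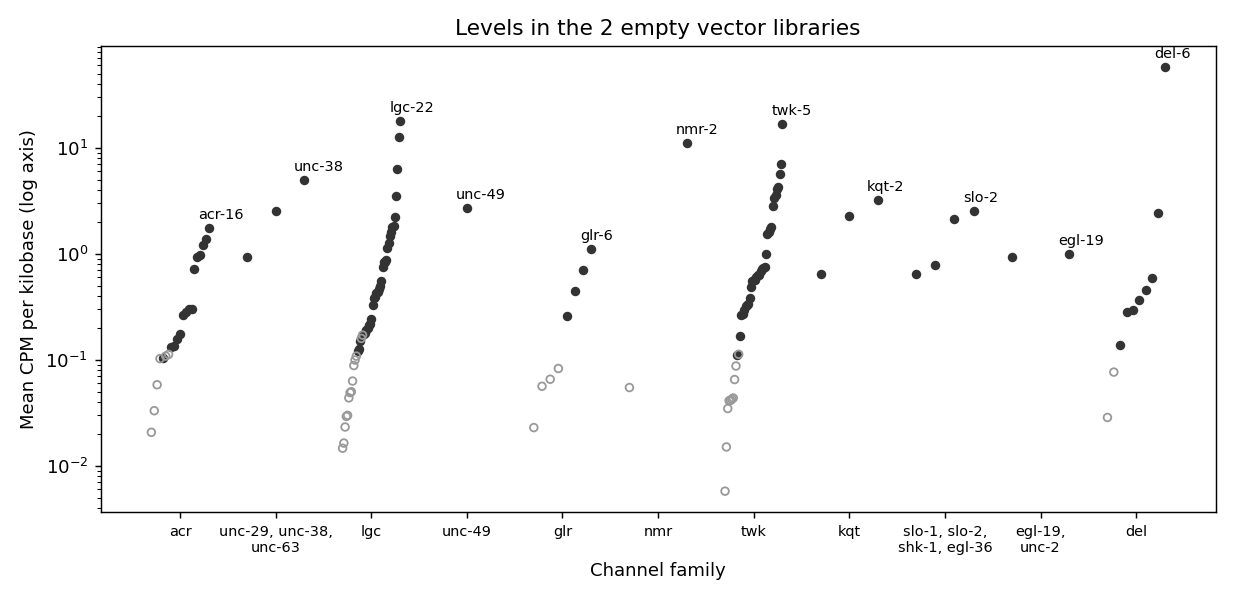
Mean CPM per kilobase of the longest annotated transcript in the 2 empty vector libraries (log axis) for each channel gene with a value above 0, by family. Filled points entered the tests and open points did not, and the top gene of each column is named. The tallest point is del-6 at 57.6 CPM per kilobase, and most other genes lie below 5.

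Under daf-2 RNAi, 8 channel genes passed the threshold. Potassium leak channels twk-33, twk-43, twk-16 and twk-17 rose, as did the ligand-gated channel lgc-44. The ligand-gated channels lgc-27 and lgc-42 and the KCNQ-type potassium channel kqt-1 fell. The 5 rises were 4.67% of the tested channel genes against 6.82% of all genes tested, and the 3 falls were 2.80% against 4.38%, so neither share was above the background. The count rests on the library set: it was 4 without empty vector replicate 2, 0 without daf-2 RNAi replicate 1, 3 without cav-1 RNAi replicate 1 and 13 without cav-1 RNAi replicate 2. The calls over all genes in these left-out fits are not given here, so these counts cannot be set against a background share. Without the repeat block no gene of the 14478 was called. With libraries scaled by total counts, or by TMM with another reference library, there were 4 rises and 0 falls in place of 5 and 3. Over all genes, total counts gave 759 rises and 415 falls in place of 987 and 634.

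twk-33 had 1.99 and 4.397 CPM in repeats 1 and 2 of empty vector, 7.71 and 8.89 under daf-2 RNAi, and only 2.46 and 3.48 with cav-1 RNAi. Both daf-2 RNAi libraries lay above all 4 others. The difference from empty vector was 1.21 (log2, SE 0.31, n = 2 libraries a group, limma adjusted p = 0.00516), 1.54 in repeat 1 and 0.87 in repeat 2. twk-33 was also the only channel gene called for daf-2 RNAi in the authors' deposited table, at a log2 fold change of 1.15 with adjusted p 0.00645. That is 1 of 98 channel genes with an adjusted p there, against 687 higher and 633 lower among all 13827 genes.

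twk-16 was at 0.687 and 1.27 CPM in empty vector, 2.68 and 2.85 under daf-2 RNAi but 0.978 and 1.86 with cav-1 RNAi, a difference of 0.94 from empty vector (SE 0.25, adjusted p = 0.00529). twk-17 was at 0.362 and 0.832 CPM in empty vector, 1.36 and 1.87 under daf-2 RNAi but 0.335 and 1.01 with cav-1 RNAi, a difference of 0.72 (SE 0.21, adjusted p = 0.0133). For both genes the daf-2 RNAi libraries did not overlap with the other 4. twk-43 was at 1.92 and 0.594 CPM in empty vector, 5.21 and 1.84 under daf-2 RNAi but 1.705 and 1.39 with cav-1 RNAi, a difference of 0.96 (SE 0.26, adjusted p = 0.0083). Its groups overlapped when the repeats were pooled, since every library of repeat 1 lay above its repeat 2 counterpart. In each repeat the single daf-2 RNAi library lay above the single empty vector and cav-1 RNAi libraries.

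lgc-44 was at 10.8 and 2.61 CPM in empty vector, 20.5 and 7.24 under daf-2 RNAi but 5.70 and 5.104 with cav-1 RNAi, a difference of 1.03 (SE 0.34, adjusted p = 0.0376). Here too the pooled groups overlapped, and the single daf-2 RNAi library was the highest in each repeat. The fallers were low throughout. lgc-27 went from 3.44 and 1.86 CPM to 0.514 and 0.922, a difference of -1.06 (SE 0.28, adjusted p = 0.00571). lgc-42 went from 0.868 and 1.31 CPM to 0.184 and 0.475, a difference of -0.65 (SE 0.20, adjusted p = 0.022), and kqt-1 from 1.52 and 1.74 CPM to 0.587 and 0.643, a difference of -0.70 (SE 0.22, adjusted p = 0.0287). In all 3 the daf-2 RNAi libraries lay below both empty vector libraries. These rest on few reads, 5 and 17 counts for lgc-42 and 16 and 23 for kqt-1 under daf-2 RNAi.

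**Figure D2:**
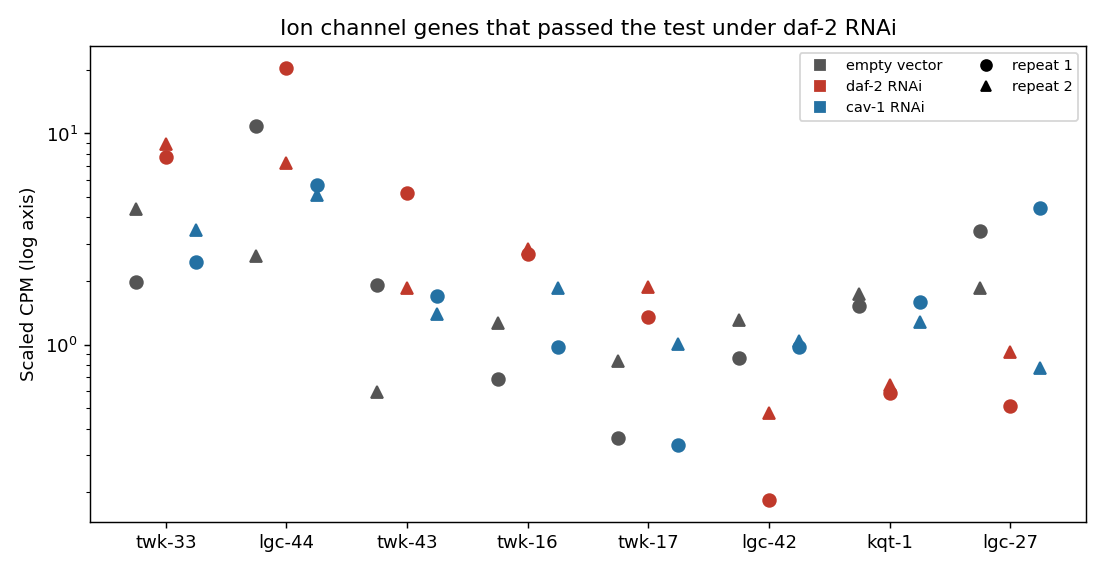
Scaled CPM (log axis) in each of the 6 libraries for the 8 channel genes that passed the test between daf-2 RNAi and empty vector. Circles are repeat 1 and triangles repeat 2. The daf-2 RNAi points of twk-33, at 7.71 and 8.89 CPM, stand above its other 4, and those of kqt-1, at 0.587 and 0.643, stand below its other 4.

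The calls differed in how far they held. twk-33 and twk-43 passed under 7 of 9 other processing choices, twk-16 and twk-17 under 6 of 8, lgc-42 under 3 of 8, kqt-1 and lgc-27 under 2 of 8 and lgc-44 under 2 of 9. All 8 lost the call without daf-2 RNAi replicate 1, where adjusted p-values reached 0.799 for twk-33 and 0.99 for lgc-44. twk-33 and twk-16 kept it when any other single library was left out. twk-43 also lost it without empty vector replicate 2, and lgc-27 without cav-1 RNAi replicate 1. twk-17 and lgc-44 lost it without either of these libraries or daf-2 RNAi replicate 2, and lgc-42 and kqt-1 without each library except cav-1 RNAi replicate 2. None of the 8 changed direction under any of these settings.

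Several of these genes share annotated exon sequence with a neighbour on the opposite strand. The library kit keeps strand, but whether counting used it is not given in the sources used here, so reads of such pairs may be mixed. kqt-1 (X:6619012-6627995 on WBcel235, plus strand) shares 371 nt with clec-266, whose counts were 3926 and 3777 in empty vector and 446 and 98 under daf-2 RNAi, a log2 difference of -4.19 (limma adjusted p = 2.66e-16). lgc-27 (II:4649085-4653283, plus strand) shares 108 nt with fut-6, which stood at 0.65 (adjusted p = 0.197), the opposite sign to lgc-27. twk-43 (V:13346278-13356168, plus strand) shares 86 nt with F32H5.1, which also rose, by a difference of 0.95 (adjusted p = 0.0103). lgc-44 shares 53 nt with F46F3.3, which had at most 9 counts in any library. twk-33 and twk-16 share no exon sequence with another annotated protein-coding gene or pseudogene. The part of overlap in these values was not tested.

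Below the threshold, the channel genes leaned to one side under daf-2 RNAi. Of the 107, 83 (77.6%) had a log2 difference above 0, against 46.4% of all genes tested, and 69 (64.5%) were higher in both repeats, against 34.3%, while 13 (12.1%) were lower in both, against 40.6%. Their median difference was 0.19, against -0.05 for all genes. The filter can favour such values: lgc-12, for one, passed it only through the daf-2 RNAi libraries. How many others did so is not given here. With no filter 110 of 147 channel genes (74.8%, against 47.3% of all genes) were above 0. With a filter of 50 counts in 3 libraries it was 43 of 52 (82.7%, against 45%). The count above 0 was 78 with median-of-ratios size factors (72.9%, against 42.5% of all genes). It was 87 with total counts only (81.3%, against 50.8%) and 83 with the other TMM reference. Without empty vector replicate 2 the count was 65 (61.9% of those tested) and the median 0.09. The values of all genes for that fit and for the other TMM reference are not given here. Whether the lean over the background holds there cannot be read from these counts. Both daf-2 RNAi libraries lay above both empty vector libraries for 26 of the 107 (24.3%, against 15.5% of all genes). They lay below both for 6 (5.61%, against 11.7%). The limit set by the filter holds for these counts too.

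**Figure D3:**
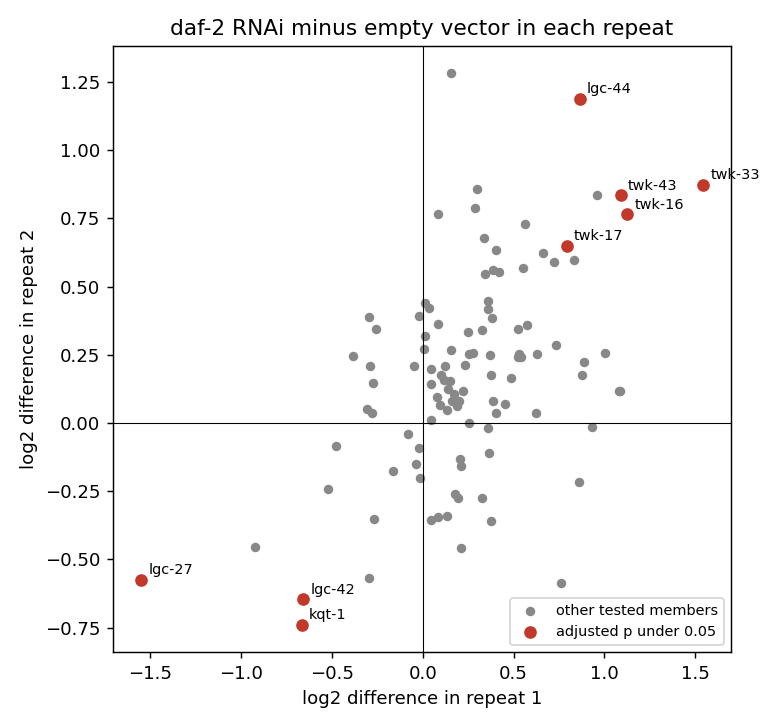
Log2 difference between daf-2 RNAi and empty vector in repeat 1 (horizontal axis) and repeat 2 (vertical axis) for the 107 tested channel genes, with the 8 that passed the test in red and named. The upper right quadrant holds 69 genes and the lower left quadrant 13.

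Of 33 tested genes for twk potassium channels, 29 had a difference above 0 under daf-2 RNAi (46.4% of all genes did), with a median of 0.39. 4 of the 33 rose and none fell, where 6.82% of all genes were called higher and 4.38% lower. Among those that did not pass, twk-18, a muscle potassium channel that heat opens further, was at 10.3 and 11.4 CPM in empty vector and 19.2 and 17.8 under daf-2 RNAi (0.72, SE 0.31, limma adjusted p = 0.139). Its empty vector and cav-1 RNAi libraries were nearly level, between 10.3 and 11.4 CPM. twk-24 (0.72, adjusted p = 0.142) was at 5.06 and 1.51 CPM in empty vector and 5.76 and 5.09 under daf-2 RNAi, a difference of 0.16 in repeat 1 and 1.28 in repeat 2. The most abundant twk genes per kilobase, twk-5 (-0.04) and twk-1 (0.01), were close to no difference. Across the scaling alternatives the twk count above 0 was 27 to 30 of 33, and without empty vector replicate 2 it was 23 of 32. The share of all genes in that last fit is not given here.

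The acetylcholine receptors of muscle showed no call. unc-29, unc-38 and unc-63 encode subunits of the levamisole-sensitive receptor and acr-16 the nicotine-sensitive one. unc-29 was at 1.88 and 1.11 CPM in empty vector and 2.64 and 2.38 under daf-2 RNAi (0.51, SE 0.25, limma adjusted p = 0.196), with no overlap between the groups. unc-38 was at 12.3 and 4.32 CPM in empty vector and 9.91 and 5.14 under daf-2 RNAi (-0.04, adjusted p = 0.945). unc-63 differed by 0.08 and acr-16 by 0.04. The receptor's other subunits, which lie outside the 151 genes, were at 0.66 for lev-1 (adjusted p = 0.157) and -0.17 for lev-8 (adjusted p = 0.59), and the differences between subunits were not tested.

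Across the acr family, 12 of the 15 tested genes were above 0 under daf-2 RNAi (46.4% of all genes) with none called, and their median was 0.12. Without empty vector replicate 2 the count above 0 was 5 of 15, with the share of all genes in that fit not given here. The motor neuron receptor subunits acr-12 and acr-3 were at 0.08 and 0.12, and acr-2 was too low to test, at 2 to 11 counts. The next most abundant per kilobase after acr-16 were acr-15, at 0.15, and acr-18, which went from 3.11 and 1.39 to 4.37 and 2.52 CPM (0.47, adjusted p = 0.288).

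The GABA-gated chloride channel gene unc-49, which relaxes body wall muscle, was at 6.65 and 7.45 CPM in empty vector, 10.0 and 9.73 under daf-2 RNAi but 6.85 and 6.88 with cav-1 RNAi. The daf-2 RNAi pair lay above the other 4 libraries, and the difference from empty vector was 0.44 (SE 0.32, limma adjusted p = 0.381). The other GABA-gated members tested, lgc-35 and lgc-38, were at 0.14 and 0.23.

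Of the 33 tested lgc genes, 27 were above 0 under daf-2 RNAi (against 46.4% of all genes), with a median of 0.19. The 1 that rose and the 2 that fell are shares near those of all genes, 6.82% and 4.38%. lgc-43 came closest to the threshold among those not called, from 4.95 and 2.10 CPM in empty vector to 10.6 and 4.53 under daf-2 RNAi (0.90, SE 0.32, limma adjusted p = 0.0598). Among channels with a known ligand, the tyramine-gated lgc-55 went from 0.108 and 0.317 to 0.404 and 0.922 CPM (0.44, adjusted p = 0.0981). Both of its empty vector values lay below the level of 10 counts, 0.362 and 0.396 CPM in those libraries. The serotonin-gated lgc-50 was at 0.29 (adjusted p = 0.527), the dopamine-gated lgc-53 at -0.10 and the choline-gated lgc-40 at -0.06. The abundant lgc-22 was at 23.4 and 29.5 CPM in empty vector and 50.7 and 32.1 under daf-2 RNAi (0.60, adjusted p = 0.18), a difference of 1.09 in repeat 1 and 0.12 in repeat 2.

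Voltage-gated and calcium-activated channels were mixed. slo-2, a calcium- and chloride-activated potassium channel, was at 9.29 and 9.86 CPM in empty vector and 12.2 and 13.5 under daf-2 RNAi (0.39, limma adjusted p = 0.44), and the Shaker channel shk-1 was at 3.91 and 4.16 CPM and 5.40 and 5.73 (0.38, adjusted p = 0.431). In both genes the groups did not overlap, though neither passed the test. The BK channel slo-1 was at -0.04 and the Shaw channel egl-36 at 0.17. The L-type calcium channel egl-19, which drives muscle contraction, was at 0.52 (adjusted p = 0.313), and the presynaptic calcium channel unc-2 at -0.17 (adjusted p = 0.734).

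Among the kqt genes, kqt-1 and kqt-2 lay the other way. Beside the fall of kqt-1, kqt-2 was at 6.04 and 8.75 CPM in empty vector, 2.72 and 6.12 under daf-2 RNAi but 5.20 and 10.2 with cav-1 RNAi (-0.69, SE 0.32, limma adjusted p = 0.17). It was lower in both repeats, by 0.92 in repeat 1 and 0.45 in repeat 2, while kqt-3 was at 0.13.

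Glutamate receptor genes showed no call. The kainate-type members glr-4, glr-5 and glr-6 differed by 0.17, 0.14 and -0.13 under daf-2 RNAi. nmr-2 was at 28.5 and 39.1 CPM in empty vector, 23.02 and 26.02 under daf-2 RNAi but 35.6 and 37.1 with cav-1 RNAi (-0.43, SE 0.28, limma adjusted p = 0.315). Its daf-2 RNAi libraries lay below the other 4. It shares 60 nt of exon sequence with hrde-2 on the opposite strand, which had 918 to 1883 counts per library. hrde-2 stood at -0.44 under daf-2 RNAi (limma adjusted p = 0.285), close to the nmr-2 value. Whether nmr-2 holds reads of hrde-2 was not tested. The partner subunit gene of nmr-2, nmr-1, had 1 to 7 counts per library and was not tested.

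Among the DEG/ENaC genes, del-6 was at 163 and 98.2 CPM in empty vector, 242 and 163 under daf-2 RNAi but 121 and 110 with cav-1 RNAi (0.65, SE 0.26, limma adjusted p = 0.0994). del-5 was at 4.70 and 3.33 CPM, 8.41 and 5.51, and 3.24 and 3.44 in the same order (0.66, adjusted p = 0.182). For del-5 the daf-2 RNAi libraries lay above all others, and for del-6 they did so within each repeat. del-2, del-3 and del-4 were below 0, at -0.12, -0.13 and -0.38.

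Genes of the same synapses outside these families gave few calls. Under daf-2 RNAi cha-1, the acetylcholine-synthesising enzyme, rose by 0.72 on the log2 scale (limma adjusted p = 0.0237) as the 1 call among 25 tested acetylcholine synapse genes. The glutamate transporter glt-5 rose by 0.93 (adjusted p = 0.0237) as the 1 call among 18 glutamate synapse genes, and itr-1, the calcium release channel, by 0.84 (adjusted p = 0.0465) as the 1 among 10 other calcium and sodium-leak channel genes. None was called among 9 GABA synapse genes, 22 other potassium channels and 16 other DEG/ENaC channels. Their counts above 0 were 17 of 25, 14 of 18, 9 of 10, 8 of 9, 18 of 22 and 14 of 16 in that order. No gene fell in any of these lists. Of all genes tested, 6.82% were called higher, 4.38% were called lower and 46.4% were above 0.

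Few cell type markers passed the test, but several lists lay to one side. Against 6.82% of all genes called higher, 4.38% called lower and 46.4% above 0 under daf-2 RNAi, 15 of 17 neuron markers were above 0 with a median of 0.46 and 1 rise (egl-3), and 13 of 14 body wall muscle markers with a median of 0.47 and 2 rises (unc-22 and unc-52). The 10 germline and oocyte markers were all below 0 (median -0.50, none called), as were the 5 tested early embryo markers (median -0.92, 4 falls). Intestine markers had a median of -0.35, with ges-1 higher and mtl-2, pept-1 and pho-1 lower, 2 of 5 tested pharynx markers rose (myo-1 and myo-2), and 2 of 7 hypodermis markers rose (col-19 and grd-10). All 17 neuron and all 14 body wall muscle markers had enough counts to be tested. Summed neuron markers were at 331 and 468 CPM in empty vector and 478 and 514 under daf-2 RNAi, and summed body wall muscle markers at 4638 and 4155 and at 6891 and 5528 CPM. Summed germline and oocyte markers were at 2090 and 6909 CPM in empty vector and 1662 and 4201 under daf-2 RNAi. The part of these differences in the channel values was not tested.

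Under cav-1 RNAi no channel gene passed the test: limma called 0 of 107, with 2 at an unadjusted p under 0.05 and a smallest adjusted p of 0.884. Over all genes tested 63 (0.435%) were called. The authors' deposited table, with 23 higher and 58 lower of 14205 genes, called 0 of 102 channel genes. Without empty vector replicate 2 the count was 1. Of the 107, 55 (51.4%, against 49.5% of all genes) were above 0, with a median of 0.00 against 0.00 for all genes, and no gene differed by 2-fold. The range ran from twk-8 at -0.61 (SE 0.33), at 11.2 and 5.90 CPM in empty vector and 3.97 and 6.26 under cav-1 RNAi, to unc-63 at 0.41 (SE 0.31), at 6.003 and 2.26 CPM and 7.10 and 3.94. twk-8 was lower in repeat 1 and level in repeat 2. Standard errors ran from 0.16 to 0.34 over the channel genes. The twk-8 value of -0.61 was not called, so differences larger than their standard error could also go undetected with these libraries. The lack of calls does not exclude them.

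**Figure D4:**
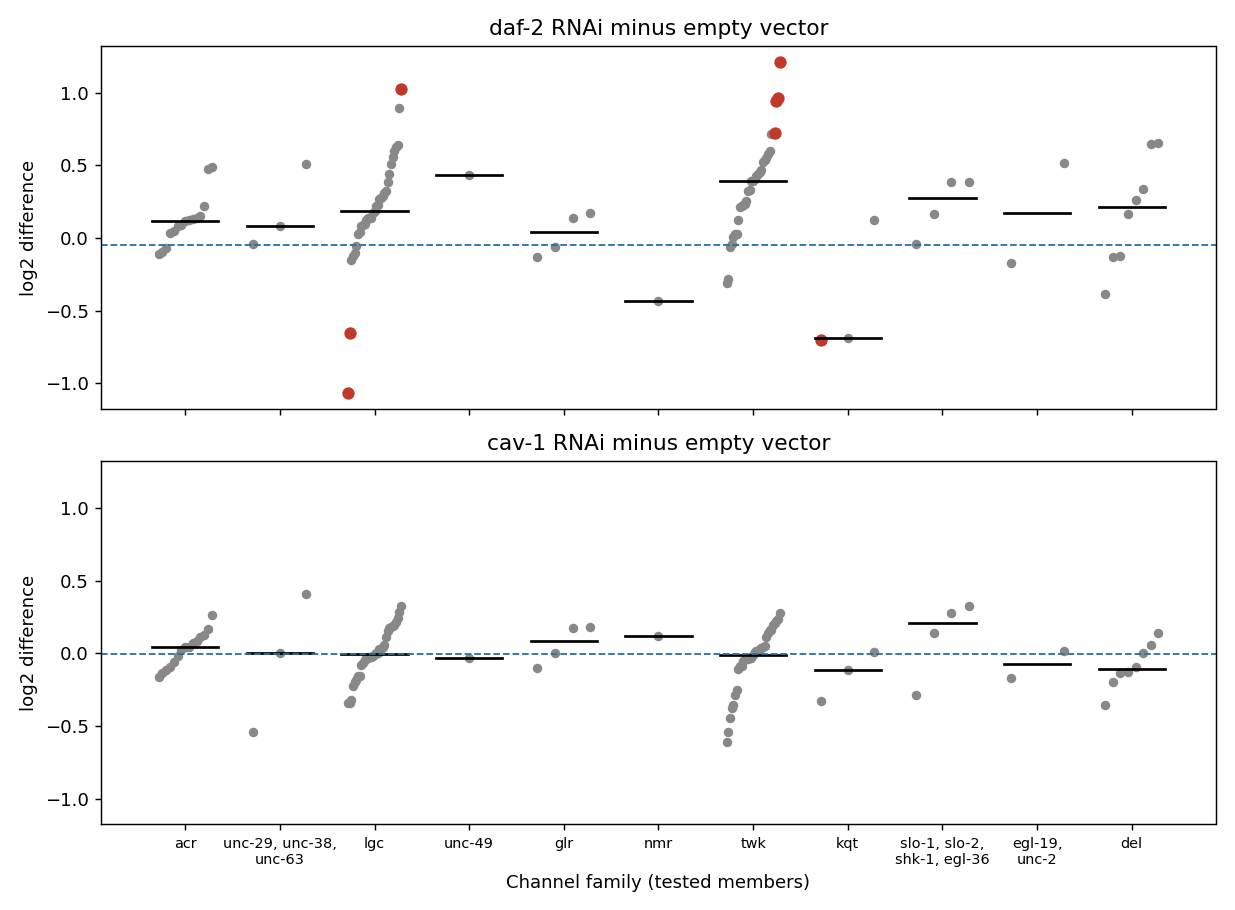
Log2 difference from empty vector for each tested channel gene, by family, under daf-2 RNAi (top) and cav-1 RNAi (bottom). Red points passed the test (adjusted p under 0.05), black bars are family medians and the dashed line is the median of all genes tested. Under daf-2 RNAi the twk median is 0.39 and the kqt median -0.69; under cav-1 RNAi no point passed.

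The direct comparison of the 2 treatments, which shares its libraries with the comparisons above, gave 20 calls. Under cav-1 RNAi 17 channel genes were lower than under daf-2 RNAi (15.9%, against 11.6% of all genes tested) and 3 were higher (2.80%, against 10.7%). The lower ones were 10 twk genes of 33 (twk-7, twk-8, twk-16, twk-17, twk-24, twk-29, twk-33, twk-43, twk-47 and twk-49), 5 lgc genes (lgc-12, lgc-13, lgc-22, lgc-43 and lgc-44), del-5 and del-6. The higher ones were kqt-1, lgc-27 and lgc-42. Of the 107, 25 (23.4%) were above 0 in this comparison, against 50.1% of all genes. The count of calls was 2 without daf-2 RNAi replicate 1, 5 without daf-2 RNAi replicate 2, 0 without cav-1 RNAi replicate 1 and 0 without the repeat block. With size factors 2 of 11 calls were higher, and with total counts or the other TMM reference 0 of 5. Over all genes 1911 were higher and 1182 lower with size factors, and 531 and 1031 with total counts. The calls over all genes with a library left out are not given here.

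Of these 20, 8 were also called in the authors' deposited table: del-5, del-6, lgc-43, lgc-44, twk-7, twk-8, twk-24 and twk-33, all lower under cav-1 RNAi. That table held 8 lower and 0 higher among 89 channel genes with an adjusted p. Among all 13449 genes with one it held 1225 lower and 2262 higher. twk-33 differed by -1.24 (SE 0.31, limma adjusted p = 0.00345), twk-24 by -1.16 (adjusted p = 0.00709), twk-8 by -1.15 (adjusted p = 0.0118) and lgc-43 by -1.12 (adjusted p = 0.0106). twk-24 and twk-8 combined a value above 0 under daf-2 RNAi with a value below 0 under cav-1 RNAi, neither of which passed against empty vector. twk-7, which acts in motor neurons, was at 12.9 and 4.67 CPM under daf-2 RNAi but 5.48 and 2.36 with cav-1 RNAi (-0.93, adjusted p = 0.0316). twk-33, twk-7, twk-49 and lgc-43 passed under 7 of 9 other processing choices, and twk-29 and lgc-13 under none. twk-49 shares 608 nt of exon sequence with T28D9.1 on the opposite strand, which had 4348 to 7726 counts per library against 22 to 134 for twk-49. twk-47 (20 and 8 counts in empty vector) and lgc-12 (6 and 3) were called at very low counts. lgc-12 passed the count filter only through the daf-2 RNAi libraries, where it was highest. Its call as lower under cav-1 RNAi is therefore no independent support. lgc-12 shares 59 nt with ttr-8 on the opposite strand, which was also lower under cav-1 RNAi than under daf-2 RNAi (-1.22, adjusted p = 0.00563).

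The repeats themselves differed more than the treatments. Between repeat 2 and repeat 1, 39 of the 107 channel genes passed (36.4%, against 59.2% of all genes tested), 14 higher and 25 lower. egl-19 was at 3.40, 4.81 and 2.04 CPM in the repeat 1 libraries (in the order empty vector, daf-2, cav-1) and at 9.55, 15.3 and 14.7 in repeat 2 (1.71, SE 0.27, limma adjusted p = 3.91e-07). unc-2 was at 2.39, 2.02 and 2.07 CPM in repeat 1 and 10.5, 9.17 and 9.05 in repeat 2 (1.74, SE 0.26, adjusted p = 8.08e-08). These are the 2 longest tested transcripts, at 6465 and 6894 nt, and for neither did the repeats overlap.

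The acetylcholine receptor subunits went the other way: unc-38 was lower in repeat 2 by a difference of -1.18 (adjusted p = 0.000154), unc-63 by -0.89 (adjusted p = 0.00249) and acr-16 by -0.81 (adjusted p = 0.00326). lgc-32 had the lowest value, -1.34, at 25.6, 41.0 and 16.6 CPM in repeat 1 and 7.13, 11.5 and 10.9 in repeat 2. Across all genes with a length, the repeat difference was higher for longer transcripts (Spearman rho 0.546 over 14368 genes, which share the 6 libraries), and across the channel genes rho was 0.306 over 107. With the length trend removed from each library, egl-19 stood at 0.15, unc-2 at 0.12 and unc-38 at -1.22. Medians per length class of all genes under daf-2 RNAi ran from 0.10 at up to 1000 nt to -0.26 above 3000 nt, and the channel medians in the 4 classes they occupy from 0.14 to 0.39. With the trend removed the channel median under daf-2 RNAi was 0.24, against -0.06 for all genes.

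**Figure D5:**
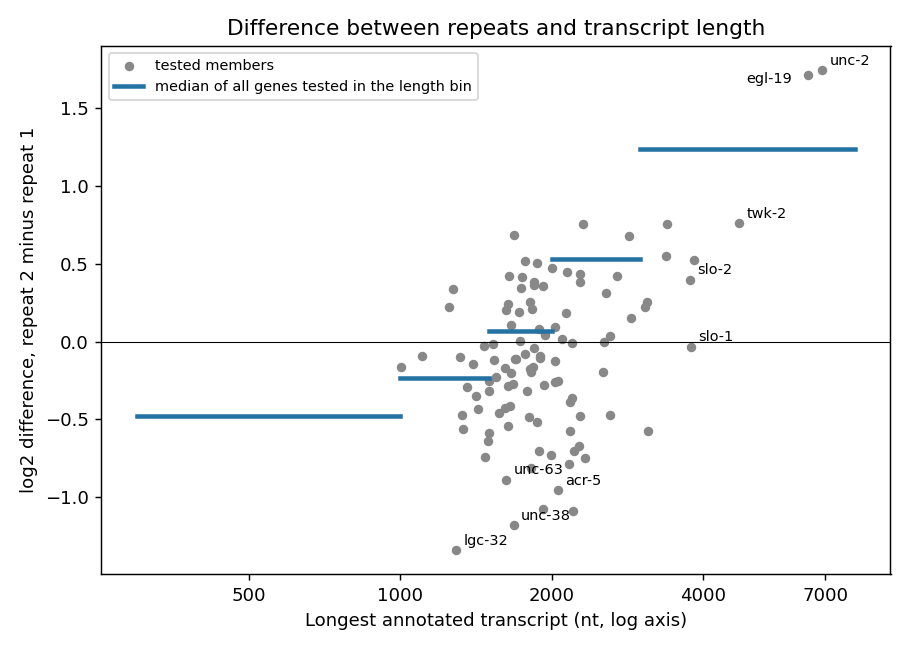
Log2 difference between repeat 2 and repeat 1 against the longest annotated transcript (nt, log axis) for the 107 tested channel genes (grey). Blue lines are medians of all genes tested in 5 length classes, the lowest class ending at 1000 nt and the highest starting above 3000 nt; the drawn ends of these 2 are cut to the plot. The medians climb from -0.48 to 1.23, and unc-2 and egl-19 lie top right.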

How the data were processed

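Counts per gene and library were deposited by the authors in 1 table headed as raw counts. The submitters' processing notes name Cufflinks 2.2.1, TopHat2 2.0.13, bcl2fastq 2.15.0.4 and cutadapt 1.7.1, genome build WBcel235 and, for the authors' own log2 fold changes and adjusted p-values, DESeq2 1.10.1. Which tool counted reads, and whether by strand, is not given in the sources used here. Because 494 of 46748 genes (1.06%) held no value and were left out, the columns did not pass a format check as counts, and no count model was used.

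Genes with at least 10 counts in 2 libraries (14478, with 99.96% of counts) were scaled by TMM (30% of log ratios and 5% of levels trimmed; factors 0.857 to 1.10, reference empty vector 1). limma-trend (R 4.3.3, limma 3.58.1) on log2(CPM + 1) took treatment and repeat as terms, 2-sided, with Benjamini-Hochberg adjustment over all genes tested and a threshold of 0.05. It had 2 residual and 56 prior degrees of freedom, so the tests lean on the spread shared across genes. Fits were tested on simulated data.

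The series design gives the repeats as biological and as holding 1 sample of each kind. Deviations of same-numbered libraries correlated at 0.886, 0.808 and 0.816 over all genes, so the repeat was kept as a block. Genes, lists and the block were chosen with earlier results of these data known, among them that the fit without the block calls nothing. Genes were named where called, where among the 6 highest or lowest differences from empty vector, where given by full symbol, or where among the 3 highest per kilobase in a family. Others were named for their role or their difference after values were seen. Lengths, positions and exon overlaps came from the Ensembl 115 annotation of WBcel235, matched by identifier for all 151 genes.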

Additional observations from a re-analysis of the deposited data

How the results depend on the processing

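Calls depended on processing more than directions did. The calls over all genes changed too. For daf-2 RNAi against empty vector they went from 987 higher and 634 lower to 759 and 415 with total counts only. They were 460 and 369 of 21044 genes with no filter and 656 and 353 of 11096 with the stricter filter. For cav-1 RNAi against daf-2 RNAi they went from 1550 higher and 1679 lower to 1911 and 1182 with size factors. Total counts gave 531 and 1031 there, and no filter 490 and 712. In place of the 8 calls for daf-2 RNAi against empty vector there were 4 with total counts only, with no filter, with the length trend removed and with TMM to daf-2 RNAi replicate 2 (an alternative chosen after seeing the data), 5 with voom weights, 2 of 52 tested with a stricter filter (50 counts in 3 libraries) and 0 without the replicate block. Leaving out single libraries gave 0 to 13. For cav-1 RNAi against daf-2 RNAi the 20 calls became 11 with size factors, 5 with total counts, 3 with no filter, 10 with the stricter filter, 13 with voom weights, 5 with the other TMM reference, 0 without the replicate block and 0 to 24 with single libraries left out. With cav-1 RNAi against empty vector, 0 channel genes were called under all of these. Few genes of any kind were called there. Over all genes, size factors gave 1 higher and 5 lower, and total counts 0 and 1. No filter gave 0 and 1 of 21044, and the stricter filter 4 and 18 of 11096. Without the replicate block there were 0 and 0. With so few calls over all genes, 0 channel genes cannot show a lack of change. The 39 calls between repeats became 20 with the stricter filter and 26 to 42 with libraries left out. The cause of these changes was not tested, except that the stricter filter tests fewer genes. Calls over all genes with voom weights or with single libraries left out are not given here. Those counts of channel genes therefore stand without a background share.

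The median over channel genes for daf-2 RNAi against empty vector stayed above 0: 0.14 with size factors (where the median of all genes was -0.10), 0.22 with total counts (0.01), 0.12 with no filter, 0.42 with the stricter filter, 0.32 at a pseudocount of 0.25, 0.47 with voom weights, 0.24 with the length trend removed, 0.33 for genes of at least 1 CPM (chosen after seeing the data) and 0.094 to 0.31 with libraries left out. For cav-1 RNAi against daf-2 RNAi it was -0.41 with the stricter filter, -0.34 at a pseudocount of 0.25, -0.45 with voom weights and -0.33 to -0.14 with libraries left out. For cav-1 RNAi against empty vector it was near 0 and turned to -0.028 with the stricter filter, -0.021 with voom weights, -0.046 with the length trend removed and -0.013 with the other TMM reference, and ran from -0.15 to 0.059 with libraries left out. Between repeats it was -0.28 with the length trend removed and -0.19 to -0.05 with libraries left out. At 10 counts a library gives 0.280 to 0.396 CPM, which limits what can be seen of the 44 untested genes.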

Other observations

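nmr-2 had 627 to 1273 counts per library while nmr-1, the partner subunit gene, had 1 to 7, a ratio of 137 to 627 within a library. nmr-2 (V:15006341-15011660 on WBcel235, minus strand) shares 60 nt of annotated exon sequence with hrde-2 on the opposite strand. In the 6 libraries nmr-2 had 0.668, 0.629, 0.683, 0.616, 0.676 and 0.663 counts per hrde-2 count (empty vector, then daf-2, then cav-1, repeat 1 before repeat 2 in each), while hrde-2 itself ran from 918 to 1883 counts. The pair was picked after its values were seen. For the other overlapping pairs set side by side in this way, kqt-1 had 0.0100 to 0.235 counts per clec-266 count and twk-43 had 0.0224 to 0.0983 per F32H5.1 count.

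Of the 151 channel genes, 42 share annotated exon sequence with another protein-coding gene or pseudogene, 41 of them on the opposite strand and 19 over at least 50 nt. The X chromosome carries 45 of the 151, 27 of which were tested.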
